A study of Mus musculus with 18 samples.

Results

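The RNA on tagged ribosomes of the choroid endothelium was compared with that of the brain endothelium in mice with the alleles Cdh5(PAC)-cre/ERT2+; NuTRAP+ after induction with Tam (tamoxifen). The comparison took the 3 Choroid Positive and the 3 Brain Positive libraries, 6 of the 18 libraries of the series, over the genes that the Choroid table and the Brain table both list. These are 7461 of the 14065 genes listed in either table. No test of a difference between the tissues entered their choice, but the raw counts in each tissue did. A further 6496 genes are listed for brain alone and 108 for choroid alone. Genes with low counts in choroid, where the libraries are shallower, were therefore left out far more often than genes with low counts in brain. Shares of genes called higher and lower hold for the compared genes only. Cdh5(PAC)-cre/ERT2 is an inducible recombinase under the promoter of the vascular endothelial cadherin gene, so any cell in which that promoter is active can be tagged. NuTRAP then labels the ribosomal protein L10a with GFP, and an antibody against GFP pulls tagged ribosomes down with their RNA, which is the Positive fraction. The Input fraction is tissue RNA set aside from the same homogenate and is used here only beside a result. Both tissues share the genotype and the induction, and no library without the recombinase was analysed here. Age, sex and the number of animals behind a library are not stated in the labels, and p-values therefore cover the spread of these 3 libraries a group, which may be partly technical.

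The choroid is the vascular coat behind the retina, and its capillaries, the choriocapillaris, are fenestrated: pores closed by a diaphragm let water and small solutes pass to the retinal pigment epithelium. Capillaries of the brain have no fenestrae and are sealed by tight junctions. They take up nutrients through transporters, keep vesicle transport low, and depend on Wnt/beta-catenin signalling to hold this blood-brain barrier.

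Levels are TMM-normalised counts-per-million (CPM), log2 fold changes are Choroid over Brain with their standard error (SE), and a gene was called at an adjusted p under 0.05 in edgeR's quasi-likelihood test with Benjamini-Hochberg adjustment over all 7461 genes. The Brain Positive libraries held 27022459, 34881136 and 33219629 counts over these genes and the Choroid Positive libraries 2703980, 710843 and 1674622. Choroid Positive 2 was the shallowest, with 4316 genes under 50 counts against 866 and 1602 in Choroid Positive 1 and 3, and Rn45s, the ribosomal RNA precursor, took 13.1% of its counts against 0.355% and 1.1% there. Tissue, depth and dissection differ together between the groups and cannot be told apart. Each tissue's table holds the genes that reach a raw value of 50 throughout its Input or throughout its Positive libraries, and 4341 of the 7461 genes met this in Choroid Input alone, 134 in Choroid Positive alone and 2986 in both. A gene that the Choroid table lists through its Input alone could therefore be low in Choroid Positive, while a gene low in both choroid fractions was not tested. The 134 genes listed through Choroid Positive alone could enter only by being high there, and of the genes named below these are Pdia5, Tspan12, Hlx, Dll4, Gja4, Ptgs1, Lama5, Abcg1 and Abcg2. Listed through Brain Positive alone were 32 genes of the Choroid Input route, 12 of the Choroid Positive route and 11 of both. Those 32 had to reach 50 in Brain Positive and could be low in Choroid Positive. Which named genes are among them is not given here.

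Cdh5, the gene whose promoter drives the recombinase (Entrez 12562, chromosome 8, 104101625 to 104144502 on mm10), stood at 1643, 1142 and 1435 CPM in Choroid Positive 1, 2 and 3 and at 360, 387 and 357 CPM in Brain Positive. Every choroid library lay above every brain library, by a log2 fold change of 1.94 ± 0.15 (SE, adjusted p = 3.46e-05). Of 24 measured pan-endothelial genes, 23 were called higher in Choroid Positive and none lower, and the 1 not called was Eltd1, an adhesion receptor gene (0.04 ± 0.19). Their median log2 fold change was 1.64, or 3.11-fold, against a median log2 fold change of 0.03 over all genes tested. In bulk RNA, fewer endothelial cells in a sample and less of their RNA per cell cannot be told apart. The counts of each endothelial list are therefore given a second time with this median set to 0, and values on that scale, called centred, are given for many of the single genes. Cdh5 itself stood at 0.30 when centred and was no longer called. On the centred scale 8 pan-endothelial genes were higher, led by Mmrn2 (2.01), Clec14a (1.72) and Emcn (1.64), and 6 were lower, among them the adhesion gene Pecam1 (-0.58 against 1.06 uncentred) and the transcription factor gene Erg (-0.43 against 1.21).

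Of the 7461 genes, 3715 differed between the endothelial fractions (49.8%). Called higher in Choroid Positive were 1922 (25.8%), 980 of them by at least 2-fold, and called lower were 1793 (24.0%), 1019 of them by at least 2-fold. The split changed on the centred scale: 236 genes were then higher (3.16%) and 6570 lower (88.1%). All 236 had been called higher before, and all 1793 genes called lower stayed lower. The counts of list members given below stand beside these shares of all genes, 25.8% higher and 24.0% lower, or 3.16% and 88.1% when centred. Members listed in 1 table alone are outside these counts. In the Brain table alone are, for example, 5 of the 22 symbols of vascular tone, 3 of the 24 of BMP and TGF-beta and 3 of the 14 of coagulation. Of the genes called lower, 1327 had entered the Choroid table through its Input alone, as had 593 of those called higher. Levels of the 3 and 3 libraries did not overlap in 4495 of all 7461 genes (60.2%). They did not overlap in 1861 of the genes called higher and in 1785 of those called lower, so a lack of overlap alone sets no gene apart. Between libraries of one tissue, log levels correlated across genes at 0.9894 or above in Brain Positive, at 0.9288 between Choroid Positive 1 and 3, and at 0.8266 and 0.8385 for Choroid Positive 2 with them. Without Choroid Positive 2, 2273 genes were called higher and 2316 lower.

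**Figure D1:**
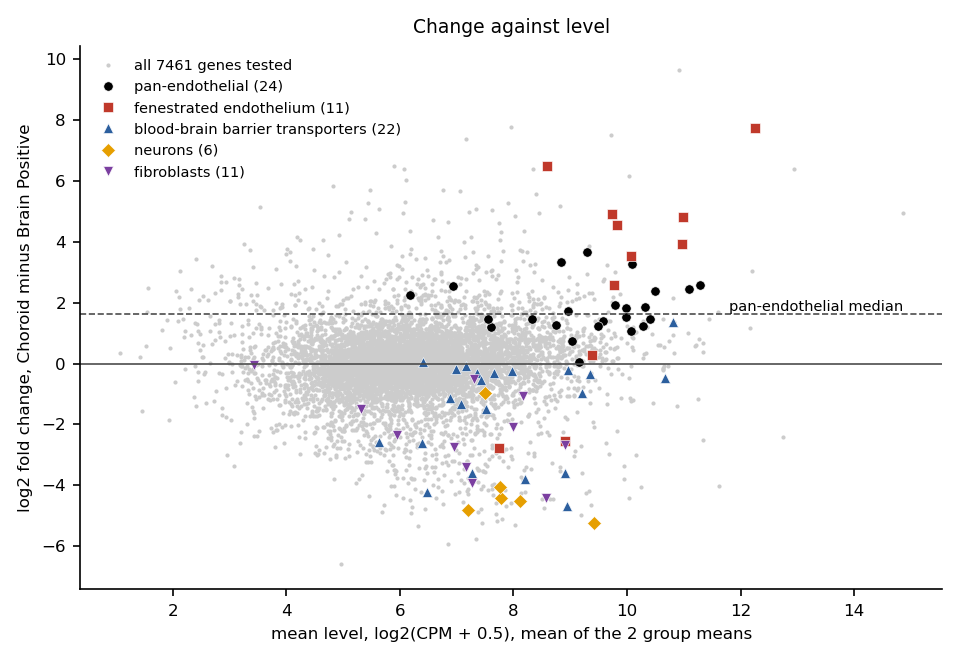
Log2 fold change of Choroid over Brain Positive (vertical axis) against the mean level in log2(CPM + 0.5) (horizontal axis) for each of the 7461 genes, with 5 gene lists marked and the pan-endothelial median of 1.64 as a dashed line. Most fenestrated endothelium genes lie above the dashed line, and the neuron markers and most blood-brain barrier transporter genes lie below 0.

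The gene with the largest increase at or above the median level was Aqp1, a water channel gene (Entrez 11826, chromosome 6, 55336299 to 55348555). It stood at 4471, 2863 and 4301 CPM in Choroid Positive and at 4.85, 2.87 and 6.9 CPM in Brain Positive, a log2 fold change of 9.64 ± 0.43 (adjusted p = 2.18e-06). Plvap, which encodes the protein of the fenestral diaphragm (Entrez 84094, chromosome 8, 71497753 to 71511769), stood at 10254, 10089 and 8751 CPM in Choroid Positive against 50.5, 41.2 and 43.3 CPM in Brain Positive. That was a 216-fold difference (log2 7.75 ± 0.20, adjusted p = 3.31e-07), with the groups far apart. Six3, an eye and forebrain homeobox gene, measured 2012, 1599 and 1446 CPM against 11.3, 10 and 6.49 CPM (7.51 ± 0.28), and its antisense RNA Six3os1 490, 473 and 522 against 2.7, 2.24 and 1.93 CPM (7.76 ± 0.18). How strand was treated in counting is not given here, so reads of this overlapping pair cannot be told apart.

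Among the same leading genes, Esm1, which encodes the proteoglycan endocan, measured 652, 860 and 774 CPM in Choroid Positive and 8.61, 8.51 and 8.34 in Brain Positive (6.48 ± 0.16). F2r, the thrombin receptor gene, measured 671, 636 and 614 against 6.28, 9.48 and 6.93 CPM (6.4 ± 0.2). Cd24a, a surface glycoprotein gene, stood at 2339, 1789 and 2097 against 36.6, 25 and 25.6 CPM (6.16 ± 0.23). Fam167b (7.38 ± 0.30), Tnfaip2 (5.67 ± 0.17), Cd300lg, a receptor gene of capillary endothelium (5.57 ± 0.17), and Pdia5, a disulfide isomerase gene (5.28 ± 0.23), were likewise at least 2-fold above Choroid Input and higher in every choroid library than in any brain library. Both traits were conditions for naming these leading genes. All of these genes were also higher on the centred scale, Aqp1 at 8.0 and Plvap at 6.11. Lars2, grouped here with Rn45s as ribosomal RNA carry-over, met the same criteria at 291, 44939 and 1278 CPM, with Rn45s at 3666, 157781 and 11327 CPM in the same libraries, but its log2 fold change of 6.4 ± 1.7 came to 2.06 without Choroid Positive 2, and its adjusted p was 0.0634, 0.057 and 0.061 without Brain Positive 1, 2 or 3.

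**Figure D2:**
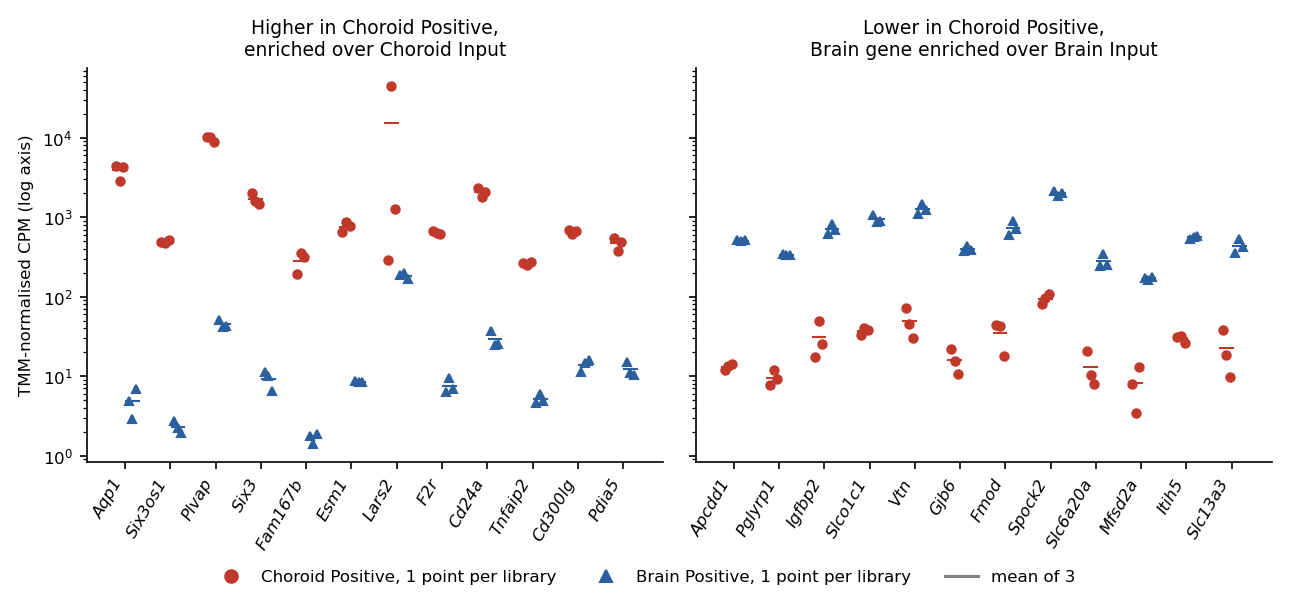
TMM-normalised CPM on a log axis of 12 genes higher in Choroid Positive and enriched over Choroid Input (left) and 12 genes lower in Choroid Positive and enriched over Brain Input (right), with 1 point per library and a bar at the mean of 3. All of these genes were chosen for no overlap between the groups, and Lars2 spreads from 291 to 44939 CPM among the choroid libraries.

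Lower in Choroid Positive, and at least 2-fold above Brain Input in Brain Positive, was first of all Apcdd1, an inhibitor and target of Wnt signalling in brain vessels (Entrez 494504). It measured 11.8, 13.6 and 14.2 CPM in Choroid Positive and 511, 496 and 518 in Brain Positive (-5.29 ± 0.15, 39.2-fold lower, adjusted p = 4.98e-07). Pglyrp1, a peptidoglycan recognition protein gene, measured 7.64, 11.9 and 9.24 against 342, 334 and 339 CPM (-5.25 ± 0.17). The thyroxine transporter gene Slco1c1 stood at 33.2, 40.7 and 38.2 against 1081, 868 and 885 CPM (-4.69 ± 0.16). These 3 genes and those that follow were chosen for no overlap between the tissues, so the lack of overlap is no result about them. Igfbp2 (-4.74), Spock2, a matrix proteoglycan gene (-4.41), Itih5 (-4.22) and the lipid transporter gene Mfsd2a (-4.23) followed. So did Vtn, the vitronectin gene (-4.64), Gjb6, a connexin gene (-4.57), Fmod, the fibromodulin gene (-4.42), and the solute carrier genes Slc6a20a (-4.29, and -5.06 without Choroid Positive 1) and Slc13a3 (-4.16, and -5.17 without it). Several of these are marker genes of cells other than endothelium, Fmod of fibroblasts, Vtn of mural cells and Gjb6 of astrocytes, and the marker lists are given further on.

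Promoters of the leading gene in each direction are shown with the letters searched in them, the TCF/LEF core CTTTGAT, the forkhead core GTAAACA and the ETS site CCGGAAGT on both strands, in the 250 bases before and 50 after the annotated start. The sequences are RefSeq's for GRCm38.p6 and are written 5′ to 3′ on the strand of the gene. That of Aqp1 (chr6:55336049-55336348, plus strand) and that of Pglyrp1 (chr7:18884440-18884739, plus strand), printed because it is the next gene after Apcdd1 with an entry, held none of these letters and are in lower case throughout.
Aqp1: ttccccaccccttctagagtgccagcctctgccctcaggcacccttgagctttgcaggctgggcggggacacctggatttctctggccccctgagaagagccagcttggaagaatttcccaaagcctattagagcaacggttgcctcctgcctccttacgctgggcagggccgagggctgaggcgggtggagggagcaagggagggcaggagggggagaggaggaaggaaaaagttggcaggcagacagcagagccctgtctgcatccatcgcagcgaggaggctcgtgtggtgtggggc
Pglyrp1: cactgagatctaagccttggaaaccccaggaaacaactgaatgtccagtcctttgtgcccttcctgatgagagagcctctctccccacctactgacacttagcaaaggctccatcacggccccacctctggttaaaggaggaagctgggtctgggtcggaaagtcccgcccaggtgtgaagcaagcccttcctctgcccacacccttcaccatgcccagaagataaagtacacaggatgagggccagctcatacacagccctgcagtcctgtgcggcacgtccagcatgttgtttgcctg
A window without a match says nothing about the factors. Of 6010 tested genes with a promoter, 2.96% held the TCF/LEF core, 3.16% the forkhead core and 9.35% the ETS site, and over all 27025 genes of the promoter table the shares were 4.29%, 4.05% and 4.31%. Motif shares were not compared between genes called higher and lower, because entries for at least 80% of each set were asked for. Entries exist for 79.4% of the genes called higher, 80.0% of those called lower and 80.6% of all tested.

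The largest decreases without regard to the pull-down were mostly genes of neurons. Cend1, a neuronal differentiation gene, measured 4.58, 1.7 and 3.08 CPM in Choroid Positive and 239, 211 and 224 in Brain Positive (-5.93 ± 0.23), and Snap25, which encodes a synaptic SNARE protein, 33.6, 79.8 and 11.7 against 1481, 1203 and 1292 CPM (-5.23 ± 0.50). Fbxl16 (-5.77), Ckmt1 (-5.34), Sncb (-5.19), Cplx1 (-5.10), Ndrg4 (-4.98), Agap2 (-4.95), Snap91 (-4.91) and Stmn3 (-4.89) followed, all of them lower in Brain Positive than in Brain Input. Without Choroid Positive 1 the values of Ckmt1, Sncb, Cplx1 and Stmn3 were -6.87, -5.91, -6.21 and -7.18. These genes were also chosen for no overlap between the tissues, and the part of neuronal RNA carried through the pull-down in them was not tested.

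Genes of fenestrated endothelium were higher in Choroid Positive in 8 of 11 measured cases and lower in 2, with a median log2 fold change of 3.94, and the centred counts were 8 and 3. Beside Plvap and Esm1, Igfbp3, which encodes an IGF-binding protein, stood at 4114, 4214 and 3413 CPM against 116, 160 and 145 (4.80 ± 0.19). Ppap2a, a lipid phosphatase gene also called Plpp1, stood at 1686, 1685 and 1553 against 52, 53.4 and 55.9 CPM (4.93 ± 0.12), and Ehd4, an endocytic trafficking gene, at 4.54 ± 0.15. None of these genes overlapped between the tissues, as was the case for 60.2% of all genes. The 2 lower members were Car4, which encodes carbonic anhydrase 4 (80.2, 25.5 and 46.2 against 421, 336 and 378 CPM, -2.77 ± 0.31), and the matrix gene Vwa1 (-2.56 ± 0.17). Gpihbp1, which anchors lipoprotein lipase, and the fatty acid receptor gene Cd36 are listed in the Choroid table alone, at 76.7 ± 19.1 and 28.7 ± 21.1 CPM in Choroid Positive (SD, n = 3), where CPM of a gene in 1 table alone is taken over that table's own total, without TMM. In Choroid Input they stood at 7.72 and 93.9 CPM, so Cd36 was lower after the pull-down. Of the same list Aplnr and Cdh13 are listed in the Brain table alone and were not compared. They stood at 14.1 and 16.7 CPM in Brain Positive and at 0.77 and 30.0 CPM in Brain Input.

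Receptor genes for VEGF, the growth factor that keeps fenestrae open, were higher in the choroid fraction, Flt1 on the uncentred scale alone. Kdr, the main signalling receptor gene, measured 4344, 2838 and 4145 CPM in Choroid Positive and 244, 245 and 248 in Brain Positive (3.94 ± 0.19, 15.4-fold, centred 2.31). Its co-receptor gene Nrp1 measured 2092, 1979 and 1870 against 168, 168 and 172 CPM (3.55 ± 0.12, centred 1.91). In both genes the 3 brain libraries were nearly equal and lay far below the choroid libraries. Flt4 (3.02 ± 0.21) and Nrp2 (2.34 ± 0.15) followed, while Flt1, a receptor gene that binds VEGF without strong signalling, differed by 1.47 ± 0.17 and by -0.16 when centred. Among ligands Vegfa was higher at 1.14 ± 0.20 and lower when centred (-0.49), and Vegfb was lower (-1.48 ± 0.23). Neither ligand gene was enriched over Input: Vegfa stood at -2.51 in choroid and -1.33 in brain, and Vegfb at -2.6 and -0.2. The part of RNA from other cells in them was not tested. In all, 7 of 9 measured members were higher and 1 lower, or 4 and 4 on the centred scale. Of 7 angiopoietin and Tie genes 4 were higher and 2 lower, or 1 and 4 centred. The receptor gene Tie1 was higher on both scales (2.37 ± 0.16, centred 0.73), Tek at 1.39 ± 0.14 came to -0.25 when centred, and Angptl4, a lipoprotein lipase inhibitor gene, was lower (6.11, 15.3 and 4.93 against 45.4, 42.9 and 51.9 CPM, -2.70 ± 0.34).

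Transporter genes of the blood-brain barrier were lower in Choroid Positive in 12 of 22 measured cases and higher in 1, with a median of -0.76, and 21 were lower and none higher when centred, near the 88.1% and 3.16% of all genes. Mfsd2a, which takes lysophospholipids up into the brain and restrains transcytosis, stood at 8.02, 3.39 and 12.9 CPM against 173, 164 and 175 in Brain Positive (-4.23 ± 0.26). The large amino acid transporter gene Slc7a5 measured 65.7, 61.1 and 88.7 against 723, 895 and 1052 CPM (-3.61 ± 0.21), and the organic anion transporter gene Slc22a8 50.4, 47.5 and 21.6 against 512, 591 and 534 CPM (-3.79 ± 0.28). The groups stood apart in each of these genes, as they did in 60.2% of all genes. The glutamine transporter gene Slc38a3 (-3.60), the iron exporter gene Slc40a1 (-2.61) and the transferrin receptor gene Tfrc (-2.57) were lower as well. Tfrc was not enriched over Input in brain (-0.14), unlike Slc38a3 (1.46) and Slc40a1 (4.07). Other members did not pass. The glucose transporter gene Slc2a1 stood at 1223, 1122 and 1756 CPM in Choroid Positive and 1758, 1849 and 2085 in Brain Positive, a difference of -0.47 ± 0.19 (adjusted p = 0.066). It was called lower when centred (-2.11), without Choroid Positive 3 (-0.69, adjusted p = 0.0076), with a replicate block (-0.5, 0.0396) and under 4 other alternatives (adjusted p from 0.00866 to 0.0448). The efflux pump genes Abcb1a (-0.36 ± 0.24) and Abcg2 (-0.23 ± 0.14) overlapped between the tissues. The 1 member that was higher was the taurine transporter gene Slc6a6 (1.38 ± 0.20, centred -0.25). Slc38a5, Slc19a3 and Abcc6 are listed in the Brain table alone, at 111 ± 32.1, 41.0 ± 2.48 and 20.6 ± 1.02 CPM in Brain Positive.

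The pull-down enriched 808 genes by at least 2-fold in choroid (10.8%) and 1298 in brain (17.4%), and among the transporter genes 6 of 22 in choroid and 19 of 22 in brain. Slc2a1 was 0.06 ± 0.23 from Input in choroid and 4.25 ± 0.099 above it in brain. These side comparisons share the Positive libraries with the tissue comparison and are given as values, not as support.

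Junction genes split by name. Cldn5, the main claudin gene of endothelial tight junctions, measured 1608, 1648 and 1643 CPM in Choroid Positive and 1896, 1741 and 1560 in Brain Positive, a difference of -0.09 ± 0.12 within the spread of the brain libraries, and it was lower when centred (-1.72). The tissues overlapped in Cldn5, as in Tjp1 (-0.37 ± 0.19) and Jam2 (0.06 ± 0.15), and stood apart in other junction genes in either direction. Ocln, the occludin gene, was lower at 30.6, 3.39 and 35.7 against 144, 142 and 146 CPM (-2.41 ± 0.37), and Lsr, a tricellular junction gene, at 42, 73 and 52.4 against 354, 345 and 313 CPM (-2.68 ± 0.19). Jup, the plakoglobin gene, was higher at 1294, 1144 and 1543 against 195, 210 and 202 CPM (2.72 ± 0.14), as was Cgn, the cingulin gene (8.79, 126 and 135 against 4.71, 3.82 and 4.58 CPM, 4.29 ± 0.82), in which Choroid Positive 1 stood near the brain libraries. Without Choroid Positive 1 or 3 the value of Cgn was 4.87 or 3.70. Of 17 measured members 11 were higher and 2 lower, or 3 and 11 when centred, and Marveld2 is listed in the Brain table alone (9.92 CPM).

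In the Wnt/beta-catenin pathway, receptor genes were higher in Choroid Positive, on both scales for Tspan12 alone, and target genes were lower. Tspan12, a co-receptor gene for norrin signalling that is listed through Choroid Positive alone, measured 258, 251 and 267 CPM against 58.8, 53.8 and 59 (2.18 ± 0.12, centred 0.54). Fzd4, its receptor gene, measured 238, 66.2 and 208 against 46.1, 54.2 and 57 CPM (1.77 ± 0.36, centred 0.13), with Choroid Positive 2 close to the brain libraries. The co-receptor genes Lrp5 (1.38) and Lrp6 (1.31) and the receptor gene Fzd6 (0.65) were higher too, and these 3 were below 0 when centred (-0.26, -0.32 and -0.99). Among targets, Nkd1 was lower at 53.1, 8.49 and 25.3 against 240, 293 and 276 CPM (-2.99 ± 0.38), Tnfrsf19 at 9.93, 15.3 and 20.3 against 155, 165 and 152 CPM (-3.43 ± 0.24) and Axin2 by less (-0.98 ± 0.25). Gpr124 and Reck, the co-activators of Wnt7 signals at the barrier, did not pass (-0.77 ± 0.30 and -0.02 ± 0.19). Of 16 measured members 7 were higher and 5 lower, or 1 and 11 when centred, against 25.8% and 24.0% of all genes. A further 9 of the 25 listed symbols are in the Brain table alone, led by Foxq1 at 132 ± 9.77, Lef1 at 103 ± 15.0, Notum at 74.5 ± 11.7, Fgfbp1 at 60.8 ± 9.91 and Tcf7 at 49.1 ± 1.37 CPM in Brain Positive, and were not compared.

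Of the pathway's members with a promoter entry, Tnfrsf19 was the 1 with a TCF/LEF core, in 1 of its windows (chr14:61037938-61038237, minus strand, RefSeq for GRCm38.p6). It is printed for that reason, with its values already known, and the capitals mark the core, read here on the opposite strand and 202 bases before the annotated start.
Tnfrsf19: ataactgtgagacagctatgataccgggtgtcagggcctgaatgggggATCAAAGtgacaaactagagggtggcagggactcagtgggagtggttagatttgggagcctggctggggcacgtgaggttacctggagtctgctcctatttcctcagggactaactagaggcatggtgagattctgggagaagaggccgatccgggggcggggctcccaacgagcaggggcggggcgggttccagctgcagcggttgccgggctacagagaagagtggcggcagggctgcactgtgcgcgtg
The other window of this gene (chr14:61046806-61047105) held none of the letters searched, and the match is a description of the sequence alone.

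Genes of caveolae, the vesicle pits of endothelium, were higher in 7 of 13 cases and lower in 4, or 1 and 9 when centred, so the lower members were near the 24.0% of all genes and under the 88.1% centred. Cav1, the main coat gene, measured 588, 625 and 603 CPM in Choroid Positive and 293, 287 and 291 in Brain Positive (1.06 ± 0.10), which was -0.58 when centred, and Cav2 came to 1.49 ± 0.13 and -0.15. Ptrf, the cavin 1 gene, did not pass (-0.08 ± 0.12), and the receptor genes Lrp1 (-1.72) and Fcgrt (-1.11), which carry proteins across or out of the cell, were lower. Log2 Positive over Input was -0.19 for Lrp1 and 3.97 for Fcgrt in brain, and -2.89 and 0.09 in choroid. In lipid handling 4 of 13 genes were higher and 7 lower, or 2 and 10 when centred. Scarb1, the HDL receptor gene, was higher at 543, 497 and 632 against 133, 128 and 127 CPM (2.11 ± 0.13), as was the cholesterol exporter gene Abcg1 (2.01 ± 0.15, listed through Choroid Positive alone). Apoe (-1.17), Pltp (-1.30) and the reelin and lipoprotein receptor gene Lrp8 (-2.05) were lower.

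The IGF axis moved in both directions by large amounts. Igfbp2 stood at 17.6, 49.2 and 25.3 CPM in Choroid Positive against 612, 823 and 691 in Brain Positive, and the ligand gene Igf2 at 196, 122 and 91.2 against 1921, 2577 and 2364 (-4.05 ± 0.29). Igfbp7 was higher at 2630, 3128 and 3055 against 583, 659 and 714 CPM (2.17 ± 0.14), and so was the insulin receptor gene Insr at 630, 528 and 740 against 88, 86.4 and 109 CPM (2.75 ± 0.17, centred 1.11). Igf1r, the receptor gene for IGF1, was lower (-1.23 ± 0.16). Of the 11 members 5 were higher and 4 lower, or 3 and 6 when centred. Insr and Igf1r thus lay on opposite sides with no overlap between tissues, while Igf2r was higher (1.03 ± 0.27, centred -0.61) with overlapping libraries.

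Endothelial transcription factor genes were higher in 17 of 21 measured cases and lower in 3, or 3 and 11 when centred. Hlx, a homeobox gene listed through Choroid Positive alone, measured 170, 110 and 127 CPM against 12.9, 9.35 and 8.31 (3.76 ± 0.25, centred 2.12), and Ets2 585, 457 and 482 against 109, 109 and 92.2 (2.30 ± 0.14, centred 0.67). The lower ones were Ppard (-1.35), Nr2f2, a vein identity gene (-0.86), and Foxc1 (-0.77). Foxf2, a factor of brain vessels and pericytes, did not pass (0.49 ± 0.24, adjusted p = 0.13). A further 15 of the 37 listed symbols are in the Brain table alone, among them Foxc2 at 89.7, Sox17 at 84 and Mecom at 46.2 CPM.

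Notch genes included Hes1, a direct target, at 560, 606 and 518 CPM against 45.5, 42.3 and 44.3 (3.67 ± 0.12, centred 2.03), and the feedback inhibitor gene Nrarp at 331, 266 and 267 against 42, 29.9 and 29.7 (3.10 ± 0.19, centred 1.46). The ligand gene Dll4 (2.01 ± 0.16) and the receptor genes Notch1 (2.18 ± 0.30) and Notch4 (1.82 ± 0.14) were higher as well, and when centred Dll4 was higher (0.38) and the receptor genes were not called (0.54 and 0.18). Dll4 is listed through Choroid Positive alone. Notch2 was lower (-0.76 ± 0.22), a call lost at adjusted p = 0.0618, 0.0585, 0.107 and 0.0509 without Choroid Positive 1 or Brain Positive 1, 2 or 3. Of 11 members 8 were higher and 1 lower, or 3 and 6 when centred. Arterial genes gave 11 of 14 higher and 1 lower, or 4 and 9 when centred, with the connexin genes Gja5 (151, 137 and 112 against 12.5, 11.4 and 8.95 CPM, 3.61 ± 0.21) and Gja4 (2.49 ± 0.24, listed through Choroid Positive alone) and the semaphorin gene Sema3g (2.42 ± 0.16) higher on both scales. Gkn3 and Bmx, arterial genes of brain vessels, are listed in the Brain table alone (90.4 and 36.7 CPM). Among 7 venous genes 4 were higher and 1 lower, or 3 and 4 when centred, with Icam1 (3.07 ± 0.19), Vwf (2.30 ± 0.20) and Ephb4 (2.19 ± 0.18) higher on both. Another 5 of the 14 venous symbols are in the Brain table alone and were not compared. These are Slc38a5, Il1r1, Darc, Aplnr and Lcn2, at 111, 36.9, 31.1, 14.1 and 12.7 CPM in Brain Positive. The same holds for 4 of the 15 Notch symbols.

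In the BMP and TGF-beta pathway 12 of 18 genes were higher and 2 lower, or 4 and 11 when centred. The co-receptor gene Eng measured 4697, 3396 and 4678 CPM against 665, 752 and 719 (2.58 ± 0.17, centred 0.94), the inhibitor gene Smad6 528, 401 and 502 against 70.2, 69.2 and 60.2 (2.85 ± 0.15, centred 1.21), and the ligand gene Tgfb1 443, 458 and 480 against 76.1, 73.7 and 64.3 (2.69 ± 0.12, centred 1.05). These 3 were higher on both scales with no overlap. The BMP receptor gene Acvrl1 was higher at 1.40 ± 0.15 and at -0.23 when centred, and the target genes Id1 and Id3 at 0.92 and 0.83 came to -0.72 and -0.81.

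Genes of vascular tone and its receptors were higher in 15 of 17 cases and lower in none, or 5 and 7 when centred. Ednrb, an endothelin receptor gene, measured 821, 599 and 600 CPM against 23.2, 19.5 and 22.9 (4.95 ± 0.18), while its difference between Choroid Positive and Input did not pass (0.29, adjusted p = 0.409). Ramp3, an adrenomedullin co-receptor gene, measured 325, 429 and 480 against 28.8, 26.5 and 19.1 CPM (4.05 ± 0.22), and Ptgs1, the cyclooxygenase 1 gene, 160, 115 and 149 against 11.7, 13 and 14.7 CPM (3.45 ± 0.18). Both were at least 2-fold above Choroid Input, and Ptgs1 is listed through Choroid Positive alone, where it had to be high. Nos3, the endothelial nitric oxide synthase gene, was higher at 1.26 ± 0.12 and lower when centred (-0.38). In coagulation 4 of 9 genes were higher and 2 lower, or 1 and 6 when centred, with no excess of lower genes over the 24.0% and 88.1% of all genes: tissue factor, encoded by F3, was lower at 20.6, 32.2 and 11.7 against 136, 155 and 162 CPM (-2.95 ± 0.27), the plasminogen activator gene Plat was lower (-1.73 ± 0.26), and thrombomodulin, encoded by Thbd, did not pass (-0.30 ± 0.16, adjusted p = 0.163). It was called lower when centred (-1.94), without Choroid Positive 1 (-0.49, adjusted p = 0.0286) and among genes at 50 counts in all 3 Choroid Positive libraries (-0.64, adjusted p = 0.0143).

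Basement membrane genes were higher in 14 of 17 cases and lower in 3, or 8 and 6 when centred. The collagen IV genes Col4a1 (1586, 989 and 1698 against 246, 345 and 340 CPM, 2.2 ± 0.23) and Col4a2 (2.31 ± 0.25), the perlecan gene Hspg2 (2.94 ± 0.23), the laminin gene Lama5 (3.03 ± 0.17, listed through Choroid Positive alone) and Col15a1 (3.24 ± 0.27) were higher on both scales. Sparcl1, which glial cells also express, was lower at 205, 109 and 198 against 1864, 1744 and 1837 CPM (-3.38 ± 0.23). Among leukocyte adhesion genes 8 of 12 were higher and 1 lower, or 4 and 6 when centred. Mcam, the CD146 gene, measured 822, 901 and 900 CPM against 24.8, 22.1 and 25.8 (5.17 ± 0.13, adjusted p = 3.31e-07), and Alcam, an adhesion gene of barrier endothelium, 35.5, 18.7 and 14.2 against 343, 441 and 364 (-3.96 ± 0.30, and -4.66 without Choroid Positive 1). These related adhesion genes were the extremes of the list in opposite directions.

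Immune genes of the endothelium divided into groups. All 10 measured genes of MHC class I presentation were higher, with none higher and 5 lower when centred. Another 4 of the 14 listed symbols are in the Brain table alone and were not compared. These are H2-Q7, H2-Q6, H2-T10 and Nlrc5, at 26.6, 20.4, 11.9 and 6.03 CPM in Brain Positive. B2m measured 2368, 1884 and 2795 CPM against 874, 788 and 877 (1.47 ± 0.16, centred -0.16), and single H2 genes are uncertain because reads of near-identical copies can be split in counting. Of 23 interferon-stimulated genes 10 were higher and 7 lower, or none and 20 when centred, the lower ones near the 24.0% and 88.1% of all genes. The higher ones included Gbp7 (1.57) and Parp14 (1.26), neither of them higher when centred, and the lower ones Ifitm1 (-2.53, and -3.79 without Choroid Positive 1), Ifit1 (-2.34, and -2.95 without Choroid Positive 3) and Ifit3 (-1.77). Of 7 Gimap and Ly6 genes 5 were higher and 2 lower, or 2 and 5 when centred. Gimap4 measured 400, 345 and 485 CPM against 9.26, 12.2 and 28.6 (4.62 ± 0.44, and 5.26 without Brain Positive 3), and Ly6c1, a surface antigen gene, 233, 256 and 290 against 1158, 1042 and 1103 (-2.08 ± 0.13). In the Brain table alone and not compared were 6 interferon-stimulated genes, led by Gbp5, Gbp4 and Iigp1 (63.6, 51.3 and 51.1 CPM in Brain Positive). So were 3 Gimap and Ly6 genes, Gimap5, Ly6c2 and Gimap9 (25.9, 16.1 and 8.46 CPM).

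**Figure D3:**
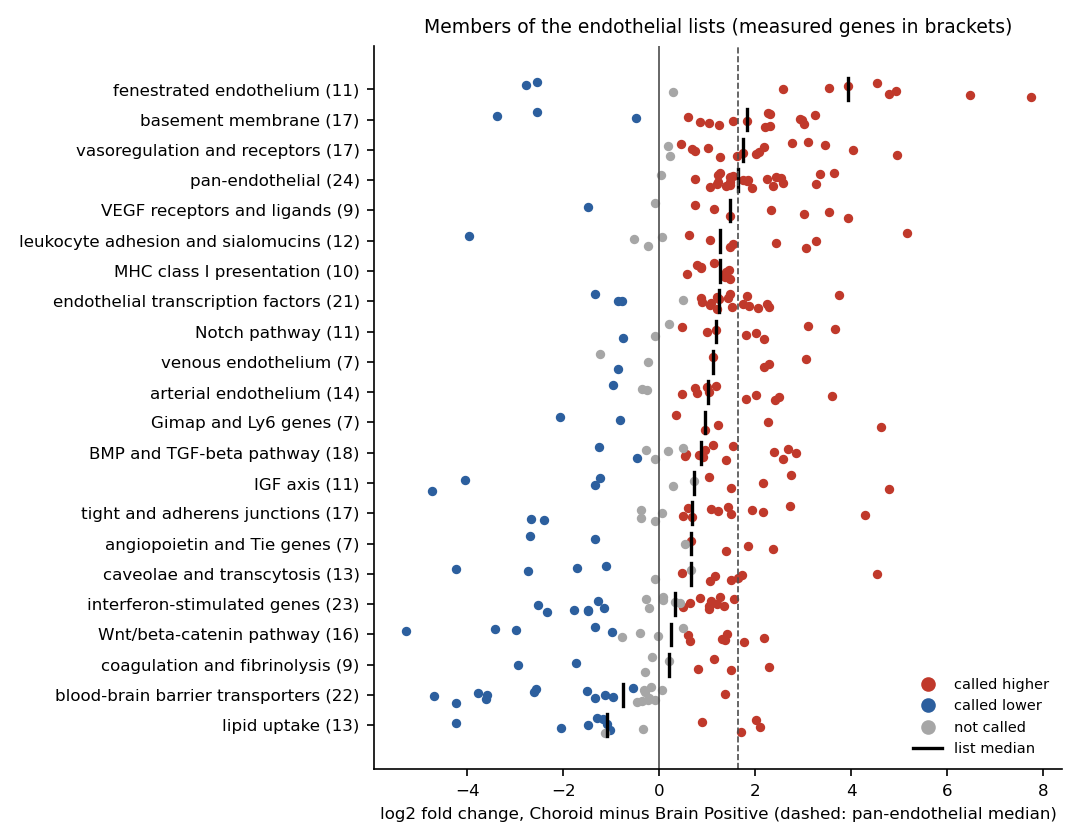
Log2 fold change of Choroid over Brain Positive (horizontal axis) for every measured member of the 22 endothelial lists, 1 point per gene, coloured by call, with the list median as a bar and the pan-endothelial median of 1.64 as a dashed line. Fenestrated endothelium has a median of 3.94 and lipid uptake of -1.08, and most medians above 0 lie left of the dashed line, where the centred value is below 0.

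Markers of other cells moved with the tissue. The summed share of 6 neuron genes was 0.347% ± 0.0169 (SD, n = 3) of counts in Brain Positive and 0.0236% ± 0.00832 in Choroid Positive, against 0.954% and 0.0392% in the Inputs, and 6 of 6 were called lower in Choroid Positive. Of 7 oligodendrocyte genes 5 were lower and of 8 astrocyte genes 5, with none higher in either list. The shares leave out markers in the Brain table alone. These are 8 of the 15 listed neuron markers, led by Nrgn and Gad1 (458 and 280 CPM in Brain Positive), and 6 of the 13 oligodendrocyte markers, led by Mobp and Mag (66.7 and 62.2 CPM). Myelin and synaptic RNA of the genes in both tables thus remained in Brain Positive at 0.195% (oligodendrocyte genes, 0.637% in Brain Input) and at the neuron share above. Whether this RNA takes part in the lower values of Choroid Positive for genes that these cells also express was not tested.

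Fibroblast genes took opposite sides in the pull-downs. Of 11 measured genes, 9 were lower in Choroid Positive and none higher, at a median of -2.34, and 11 were lower when centred. Col1a2, a collagen I gene, measured 140, 143 and 110 CPM in Choroid Positive and 643, 1023 and 814 in Brain Positive (-2.67 ± 0.20), and Fmod 43.6, 42.4 and 17.9 against 604, 884 and 705 CPM. All 11 genes were at least 2-fold above Input in Brain Positive and at least 2-fold below Input in Choroid Positive. Their summed share went from 0.027% of Brain Input to 0.378% ± 0.0689 of Brain Positive, and from 0.452% of Choroid Input to 0.0645% ± 0.0144 of Choroid Positive. Igf2, Igfbp2, Slc6a20a and Slc13a3, named above, had the same pattern: 3.58, 2.63, 4.26 and 3.43 over Input in brain and -1.17, -2.61, -4.23 and -2.54 in choroid. That fibroblast RNA takes part in the lower Choroid values of such genes was not tested. Mural genes divided, 5 of 11 higher and 4 lower, or 1 and 6 when centred, with Abcc9 at 4.99 ± 0.38 and Vtn at -4.64 ± 0.31.

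Pigment epithelium genes were higher in Choroid Positive in 7 of 11 cases and lower in 3, or 6 and 4 when centred, and all 11 were at least 2-fold below Choroid Input. The visual cycle gene Rlbp1 stood at 181, 314 and 164 CPM against 6.25, 8.93 and 10.1 (4.66 ± 0.31), with a Positive over Input difference of -3.98 in choroid, and Slc16a8, a lactate transporter gene of this epithelium, at 112, 114 and 125 against 0.922, 1.24 and 1.66 CPM (6.50 ± 0.26). Rpe65, Lrat and Rgr are listed in the Choroid table alone, at 211, 181 and 627 CPM in Choroid Positive and 2875, 2609 and 8903 of Choroid Input. The summed share of the list was 3.85% of Choroid Input and 0.417% ± 0.145 of Choroid Positive, and 1.33% of Brain Positive, where the prostaglandin D synthase gene Ptgds at 11550, 12052 and 11211 CPM made up most of it. Pigment cell genes such as Dct (3436 CPM in Choroid Input, 471 of Choroid Positive) were likewise listed in the Choroid table alone. All 4 measured photoreceptor genes were higher, with 2 higher and 1 lower when centred. RNA of the pigment epithelium, melanocytes and photoreceptors was therefore present in the choroid fractions, less so after the pull-down, and its part in genes such as Ednrb was not tested.

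**Figure D4:**
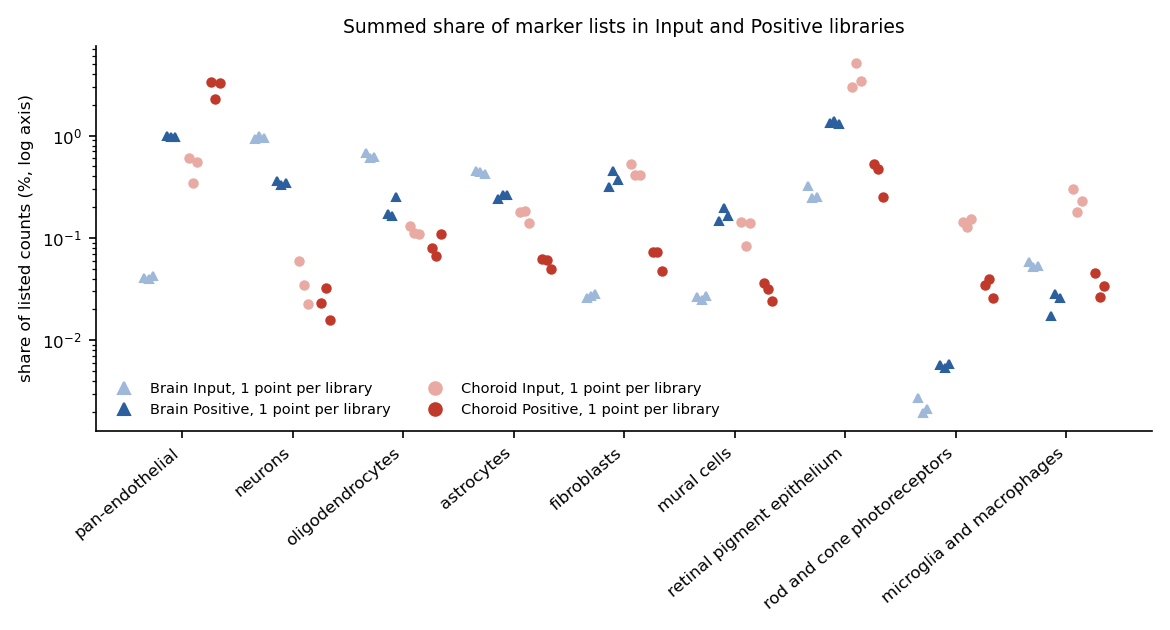
Summed share of 9 marker lists in percent of listed counts, on a log axis, with 1 point per library for Brain Input, Brain Positive, Choroid Input and Choroid Positive. Only members listed in both tables enter the shares. The pan-endothelial share rises from Input to Positive in both tissues, while the fibroblast share rises in brain (0.027% to 0.378%) and falls in choroid (0.452% to 0.0645%).

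Of 9 choroid plexus genes, included because this epithelium lies in the brain ventricles, 9 were higher in Choroid Positive, and Aqp1, Ttr and Otx2 are also expressed by pigment epithelium or choroid vessels. At least 2-fold below Choroid Input were 8 of the 9, and 1, Aqp1, was at least 2-fold above it. The summed share of these genes was 2.23% of Choroid Input and 0.568% of Choroid Positive. Ttr measured 1400, 2384 and 961 CPM against 146, 106 and 336 (3.01 ± 0.49, and 3.65 without Brain Positive 3). Of 12 microglia and macrophage genes 6 were higher and 1 lower, from low levels such as Ptprc at 9.93, 10.2 and 6.16 against 0.581, 0.922 and 0.884 CPM. The 4 erythroid genes overlapped between the tissues, with unadjusted p from 0.483 to 0.924, and globin copies are uncertain for the same reason as H2 genes. Of 7 genes of other retinal neurons and Mueller glia 3 were higher and 2 lower, of 3 melanocyte genes 2 were lower (Kit and Edn3), of 3 skeletal muscle genes 2 were higher and 1 lower, and of 2 lymphatic genes Flt4, which choriocapillaris and other fenestrated vessels also express, was higher.

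Among RNA classes, ribosomal protein genes were higher in 35 of 79 cases and lower in none, with a median of 0.54 that became -1.1 when centred, where 79 were lower. Without Choroid Positive 2 the counts were 19 higher and 1 lower. Rpl10a, the gene of the tagged protein, ranked 1 of 79 in Positive over Input in choroid (log2 1.87) and in brain (1.98), and 11 of 79 between the tissues (0.83 ± 0.13, centred -0.81). Of 9 immediate early genes 6 were higher and none lower, such as Dusp1 (1.82 ± 0.25, centred 0.18) and Jun (1.18 ± 0.16, centred -0.46). Of 6 nuclear long non-coding RNAs, Neat1 and Kcnq1ot1 were higher (1.16 and 1.94) and Meg3, Snhg11 and Rian lower (-4.19, -3.84 and -3.39), the latter 3 being abundant in neurons.

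The Choroid minus Brain difference in log2 Positive over Input was tested as well, and 3591 genes passed (48.1%). It depends on the make-up of the Inputs as well as on the pull-down, and is not centred. Cdh5 was enriched by 2.93 ± 0.29 in choroid and 4.92 ± 0.074 in brain, a difference of -1.86 ± 0.32 (adjusted p = 0.000266). Pan-endothelial genes held 0.503% of Choroid Input and 0.041% of Brain Input, and 2.98% and 0.982% of the Positive fractions. Plvap was enriched by 3.10 ± 0.32 in choroid and 0.75 ± 0.17 in brain, where it stood at 50.5 CPM or less. Aqp1 rose by 2.87 in choroid and fell by 0.95 in brain, and F2r measured 2.59 and -0.40. Slco1c1 fell by 3.08 in choroid and rose by 4.08 in brain, a difference of -7.02 ± 0.21 (adjusted p = 7.25e-11), and Apcdd1 differed by -4.81 ± 0.57 with no call in choroid (-0.69 ± 0.60). Esm1 was enriched in both tissues (3.16 and 4.08), and the difference of -0.78 ± 0.37 did not pass (adjusted p = 0.0982).

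**Figure D5:**
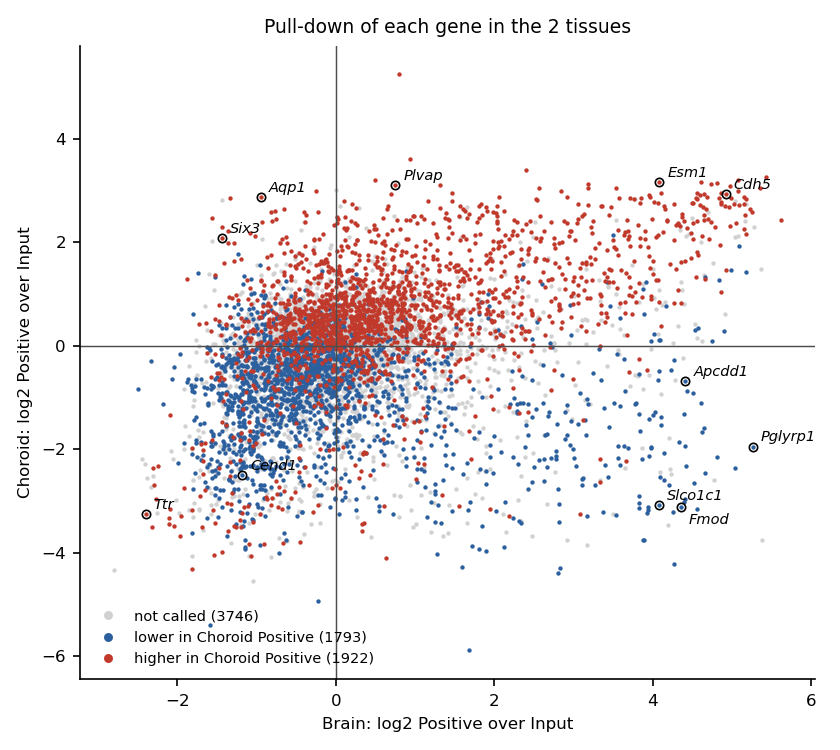
Log2 Positive over Input in choroid (vertical axis) against the same in brain (horizontal axis), 1 point per gene, coloured by the call between Choroid and Brain Positive, with named genes ringed. Cdh5 and Esm1 lie at the upper right, Plvap and Aqp1 high in choroid and near 0 in brain, and Slco1c1, Fmod and Pglyrp1 above 0 in brain and below 0 in choroid.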

How the data were processed

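Ribosome-bound RNA (Positive) and tissue RNA (Input) of choroid and brain were measured by RNA sequencing, 3 libraries each, per the labels. Both tissues' homogenates were pulled down with an antibody against GFP and protein G beads, and a directional kit was used, per the labels' protocols. The deposited raw columns hold estimated counts per gene made by the authors; mm10 and DESeq are named in the submitters' processing notes, and no aligner, counter or strand setting is given in the sources used here. The log2 values that the authors deposited beside them were not used in any test. Retina libraries were not used here.

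Estimated counts were rounded and joined by gene ID over the 7461 genes in both tables, and 7457 IDs (99.95%) matched RefSeq for GRCm38.p6. The 3 Choroid Positive and 3 Brain Positive libraries were fitted alone with edgeR 4.0.16 in R 4.3.3: TMM factors, filterByExpr (minimum count 10, no gene lost), the quasi-likelihood test and Benjamini-Hochberg adjustment at 0.05. Positive over Input was fitted in each tissue alone (6 libraries), and its difference between tissues over all 12. Totals of 710843 to 2703980 counts in Choroid Positive limit the precision of low genes there. Alternatives were other scalings (pan-endothelial median set to 0, DESeq2 size factors, upper quartile), filters, DESeq2 1.42.0, a replicate block, and leaving out each library. The main fit was also run on simulated counts with known changes, drawn with the same dispersion for every gene and both tissues. That setting does not cover the wider spread among the Choroid Positive libraries.

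Members and lists were chosen with earlier results of these data known. Named genes were the 12 largest increases and decreases with no overlap between tissues at or above the median level, the same among genes at least 2-fold over Input in the tissue where they are higher, the first 2 measured and the 2 most changed members of each list, Cdh5, Rpl10a and Plvap. Not every gene that meets the rule is reported here. Other list members are given as examples chosen after their values were seen. Input and Positive of 1 number come from 1 homogenate, per the labels' protocols, and their deviations correlated at 0.14 to 0.205 in choroid and 0.0424 to 0.273 in brain.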

Additional observations from a re-analysis of the deposited data

Results flagged for a closer look

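For 33 of the 163 genes of the report looked at, the pull-down moved in opposite directions in the tissues, and the Choroid minus Brain difference in log2 Positive over Input passed edgeR's quasi-likelihood test of that difference. Over all 7461 genes that difference passed for 3591 (48.1%). At least 2-fold above Input in brain and at least 2-fold below it in choroid were 270 genes (3.62%), and 28 (0.375%) were the reverse. The genes looked at were chosen partly for large changes in these same libraries, so their count is no result about them. Among the 33 genes the difference was above 0 for 6, which rose over Input in choroid and fell in brain: Aqp1 (3.95), Six3 (3.65), its antisense RNA Six3os1 (3.04), the adhesion gene Mcam (3.54), the cholesterol exporter gene Abcg1 (3.27) and the cyclooxygenase gene Ptgs1 (2.92). It was below 0 for 27 genes, which rose over Input in brain and fell in choroid. Among transporter genes these were Slco1c1 (-7.02), Slc22a8 (-6.98), Slc7a5 (-5.34), Mfsd2a (-4.78), Slc38a3 (-4.45), Slc6a20a (-8.31) and Slc13a3 (-5.78). Among genes of signalling and identity they were Angptl4 (-7.08), Igfbp2 (-5.16), Igf2 (-4.59), Igf1r (-2.57), Tnfrsf19 (-3.41), Notch2 (-3.33), Nr2f2 (-2.44), Alcam (-2.46), the tissue factor gene F3 (-4.12) and the endothelin gene Edn3 (-7.54). Among interferon-stimulated and lipid genes they were Ifitm1 (-6.01), Ifit1 (-5.76), Ifit3 (-4.7), Ptgds (-5.65), Pltp (-5.28) and Apoe (-2.72). Fibroblast, mural and astrocyte markers among them were Fmod (-7.33), Col1a2 (-6.75), Vtn (-4.4) and Gjb6 (-4.22).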

How the results depend on the processing

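Setting the pan-endothelial median to 0 changed most: 236 genes were higher and 6570 lower, against 1922 and 1793, and 26 of 158 named genes changed sign with a call on at least 1 of the scales. These were Pecam1 (-0.58), Fzd6 (-0.99), Cav1 (-0.58), Cav2 (-0.15), Flt1 (-0.16), Tek (-0.25), Erg (-0.43), Acvrl1 (-0.23), Procr (-0.15), Nos3 (-0.38), Edn1 (-0.02), Icam2 (-0.16), B2m (-0.16), H2-D1 (-0.26), Tap1 (-0.19), Gimap1 (-0.68), Hba-a2 (-1.57), Neat1 (-0.48), Jun (-0.46), Junb (-0.62), Nr4a1 (-0.09), Rpl7 (-0.81), Rpl31 (-0.98), Rpl5 (-0.53), Rpl19 (-0.61) and Rpl10a (-0.81). List medians that changed sign were those of junctions (-0.95), Wnt/beta-catenin (-1.4), caveolae (-0.96), VEGF (-0.16), angiopoietin (-0.97), transcription factors (-0.4), arterial (-0.63), venous (-0.52), Notch (-0.45), BMP and TGF-beta (-0.76), coagulation (-1.43), IGF (-0.91), leukocyte adhesion (-0.37), MHC class I (-0.38), interferon-stimulated (-1.32), Gimap and Ly6 (-0.68), mural (-1.08), microglia (-0.69), erythroid (-1.33), lymphatic (-0.31), immediate early (-0.46) and ribosomal protein genes (-1.1). These values differ from those of the report by the one shift that this setting subtracts. With low genes left out, keeping those no lower than the median level, 1076 were higher and 1169 lower, since fewer genes were tested, and the medians of coagulation (-0.06), pigment epithelium (-0.42), mural (-2.9) and muscle genes (-2.71) changed sign. Among genes at 50 or more counts in all 3 Choroid Positive libraries, a setting chosen after seeing the data, 899 were higher and 902 lower, and the medians of lipid uptake (0.08) and nuclear long non-coding RNA (0.82) changed sign. At a log2 fold change of at least 1, 980 were higher and 1019 lower. Leaving out each library gave 1374 to 2273 higher and 1269 to 2316 lower. DESeq2's Wald test called 2126 higher and 2006 lower and gave 155 named genes the same call and 1, Lars2, no adjusted p. Same-numbered Choroid and Brain Positive libraries share only a number: their deviations correlated at -0.0419, -0.0534 and 0.0945, and not every library correlated best with its own number. With that number as a replicate block 1577 genes were higher and 1544 lower, and 157 of 158 named genes had the same call, the other being Slc2a1, called lower at -0.5 (adjusted p = 0.0396). The block changed the pull-down counts from 808 to 803 in choroid and from 1298 to 1301 in brain. With each homogenate as a block, chosen after seeing the data, the difference in Positive over Input between tissues passed for 3852 genes against 3591, of which 3482 remained with the same sign. Depth limits the choroid side, where 4316 genes had under 50 counts in Choroid Positive 2.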
